A study of Mus musculus with 11 samples.

Results

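Replication licensing was followed in mouse liver through 9 genes, which are the helicase subunits Mcm2, Mcm3, Mcm4, Mcm5, Mcm6 and Mcm7, the loading factors Cdt1 and Cdc6, and the Cdt1 inhibitor Gmnn. The members were found by their gene symbol in the platform annotation, without regard to their signal. They were measured by 21 probe sets, 16 of them for the helicase, among 12393 genes that had a probe set of a single symbol. RNA came from the livers of 11 male mice of mixed background, 1 array per mouse, in a study of a high-fat diet and of muscle growth driven by Akt1, a kinase of insulin and growth factor signalling. Wild-type mice were fed a normal diet (n = 3, called normal-diet arrays) or a high-fat diet (n = 4, wild-type high-fat arrays). Akt1 double transgenic mice, labelled DTG, were fed the high-fat diet (n = 4, transgenic arrays), and they are the mice for which the labels mark muscle hypertrophy. Doxycycline, a drug used to switch inducible transgenes on or off, was given for 3 weeks to all groups, wild-type mice included. There was no transgenic group on the normal diet, so the transgene was compared within the high-fat diet. The promoter that drives the transgene and the number of founder lines are not given in the sources used here.

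Licensing is the step that prepares chromosomal origins for replication before S phase. The origin recognition complex, together with CDC6 and CDT1, loads rings of the MCM subunits onto DNA, where they wait as the inactive core of the replicative helicase. Geminin, the product of Gmnn, binds CDT1 and prevents a second loading in the same cycle. E2F transcription factors are known activators of these genes in cells that enter the cycle, and most hepatocytes of an adult liver are quiescent.

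Promoter stretches of the members are shown first, as a description of their letters. RefSeq windows of the GRCm38.p6 build, from 250 bases before to 50 bases after the start site, were held for 7 of the 9 members, with 2 windows for Mcm7. Mcm4 and Gmnn had no window here. The windows were searched on both strands for 4 forms of the E2F motif (TTTCCCGC, TTTGGCGC, TTTCGCGC and TTTGCCGC), and matches may overlap each other. A match was found for 6 of these 7 members, and for Mcm2 none of these letters were in the window. Of all 32851 windows 2.26% held a match, and of the 6495 tested genes with a window 4.74% did. Each stretch below runs 5′ to 3′ on the strand of its gene, with the matched letters in capitals.
Mcm6, chr1:128359725-128359835, minus strand: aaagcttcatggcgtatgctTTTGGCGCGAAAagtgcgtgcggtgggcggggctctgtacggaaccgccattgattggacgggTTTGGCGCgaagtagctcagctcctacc
Mcm5, chr8:75109336-75109387, plus strand: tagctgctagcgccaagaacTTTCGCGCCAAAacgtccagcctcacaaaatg
Mcm3, chr1:20820267-20820293, minus strand: GCGGGAAAacttgggaagtTTTGGCGC
Mcm7, chr5:138172021-138172068, minus strand: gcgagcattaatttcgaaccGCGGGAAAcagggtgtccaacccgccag
Cdt1, chr8:122568047-122568054, plus strand: TTTGGCGC
Cdc6, chr11:98907993-98908040, plus strand: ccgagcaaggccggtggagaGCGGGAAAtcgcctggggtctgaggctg

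Mcm6 had 3 matches between bases -110 and -40 from its start site, the first 2 of which overlap. Mcm5 had 2 overlapping matches, from base -153 to base -142. Mcm3 had 2 separate matches just downstream of its start site, at bases 20 to 27 and 39 to 46, and Mcm7 had 1 upstream and a second at bases 17 to 24 in 1 of its 2 windows. Cdt1 had a single match at bases 33 to 40. The CCAAT box (CCAAT on either strand), a common promoter element bound by NF-Y, was present for 5 of 7 members and in 42.8% of the tested genes with a window. These 5 were Mcm2, Mcm3, Mcm5, Mcm6 and Mcm7, and in Mcm7 a CCAAT box shared 1 base with the downstream E2F match. The matches describe letters in these windows, and binding of a factor was not measured. How the matches relate to the differences between groups was not tested.

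The arrays give a linear signal per probe set, and its mean without the lowest and highest 2% lay between 500 and 501 on every array. The main test kept 7924 genes, after the dimmest 40% of probe sets (mean log2 signal equal to a signal of less than 53.0) had been removed. Of the 9 members 8 passed this limit, and Cdc6 did not. On the wild-type arrays alone, 5 of 9 (Mcm2, Mcm4, Mcm7, Cdt1 and Gmnn) had a mean above it, so Mcm3, Mcm5 and Mcm6 passed through their higher signals in transgenic livers. A gene is represented by the probe set of highest mean signal unless another is named. Signals of different probe sets were not set against each other, since probes differ in brightness.

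Transgenic arrays 3 and 4 stood apart from the other arrays. Their highest signals were 42425.5 and 43272.9, against 27779.5 to 35450.1 on the other 9 arrays, and their mean Spearman correlations with other arrays were 0.940 and 0.943, against 0.948 to 0.951. Transgenic array 3 also had the lowest mean poly-A spike signal, 113 against 277 to 468 on the other 10, and the highest Gapdh 3'/5' ratio, 0.823 against 0.669 to 0.768. The part of these differences in the results was not tested. Member differences on the high-fat diet and counts of calls are given with and without both arrays, while the pair ratios, the other lists and the marker sums are given with them. All 8 measured hepatocyte markers passed the signal limit, so markers of the labelled tissue were present. Their summed signals were 230625 and 226672 on transgenic arrays 3 and 4, against 142387 to 177888 on the other 9 arrays. The samples were whole tissue, in which more cells that express a gene and more RNA of it per cell cannot be told apart.

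On the high-fat diet, 1 of 6 helicase subunits, Mcm4, and the loader Cdt1 were called higher in Akt1 transgenic than in wild-type livers. Mcm4 rose 2.51-fold and Cdt1 rose 2.96-fold, and they were the 2 of 8 tested members that passed across all genes (limma, adjusted p under 0.05). The other 5 subunits had higher means in transgenic livers, with adjusted p of 0.0780 to 0.131. Of all tested genes 0.227% were called higher and 0.139% lower. Every transgenic array lay above every wild-type high-fat array for 6 of the 9 members (Mcm3, Mcm4, Mcm5, Mcm6, Mcm7 and Cdt1), a pattern seen in 4.32% of tested genes. Mcm3, Mcm5 and Mcm6 are among these 6 and passed the signal limit through their transgenic signals, so this count is a description. The median log2 difference of the 6 subunits was 1.55, beside a median of 0.04 over all 12393 genes without the signal limit.

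Mcm4 belongs, with Mcm6 and Mcm7, to the group of subunits that showed helicase activity on their own in vitro. Its signals were 95.5, 94.4 and 88.4 on the normal-diet arrays, 89.7, 165.9, 91.8 and 89.5 on the wild-type high-fat arrays, and 175.4, 298.5, 322.9 and 286.6 on the transgenic arrays. The wild-type values lay close together except on high-fat array 2, and all 4 transgenic arrays lay above all 7 wild-type arrays, with transgenic array 1 nearest to them. On the high-fat diet the log2 difference was 1.33 ± 0.24 (SE, limma adjusted p = 0.0482). The other Mcm4 probe set, 1436708_x_at, differed by 1.61 ± 0.41 with no overlap between these groups. The call was at the edge of the threshold and held in 8 of 20 alternative fits, in which the difference ranged from 1.10 to 1.55 and adjusted p from 0.0139 to 0.303. It was lost without the signal limit (adjusted p = 0.0673), with the replicate block (0.0552) and without transgenic arrays 3 and 4 (a difference of 1.12, 0.303).

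Mcm7 was measured by 4 probe sets. The brightest gave signals of 345.6, 398.2 and 496.7 on the normal diet, 317.9, 458.6, 321.8 and 274.7 in wild-type high-fat livers, and 570.6, 492.7, 825.0 and 675.8 in transgenic livers. Transgenic livers were above all wild-type high-fat livers, but transgenic array 2 fell just under the highest normal-diet value. The difference on the high-fat diet, 0.90 ± 0.19 on the log2 scale, was the smallest among the 6 subunits and did not pass (limma adjusted p = 0.0780). The other 3 probe sets gave 0.57 to 0.82, each without overlap between the groups on the high-fat diet.

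Mcm6 signals varied widely among wild-type mice. They were 35.6, 135.8 and 76.1 on the normal diet, 85.2, 128.4, 3.6 and 19.6 in wild-type high-fat livers, and 333.9, 306.0, 431.1 and 266.5 in transgenic livers. All transgenic values were above all wild-type values, while wild-type high-fat arrays 3 and 4 lay far below the other wild-type arrays. The log2 difference on the high-fat diet, 3.47 ± 0.89 (limma adjusted p = 0.117), was the largest of the subunits by the brightest probe sets and also had the largest error. The second probe set, 1438852_x_at, read 49.7, 44.8, 11.1 and 47.4 in wild-type high-fat livers and 126.3, 119.5, 223.9 and 142.9 in transgenic livers, a log2 difference of 2.17 ± 0.49. High-fat array 3 was again the lowest, but high-fat array 4 was not low by this probe set. With 32 added to each signal before log2, which damps low values, the brightest set differed by 2.24 and passed (adjusted p = 0.0470). Of 19 alternative fits 2 put Mcm6 past the threshold, and adjusted p ranged up to 0.386.

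Mcm2, a subunit that also binds histones, overlapped between the groups on the high-fat diet through a single transgenic array. Its signals were 39.5, 71.4 and 45.2 on the normal diet, 53.3, 65.8, 93.7 and 47.2 in wild-type high-fat livers, and 335.5, 89.3, 179.3 and 402.4 in transgenic livers. Transgenic array 2 lay within the wild-type range and the other 3 lay above it. The difference was 1.78 ± 0.43 on the log2 scale (limma adjusted p = 0.102). By the second probe set, 1448777_at, the transgenic signals were 94.3, 133.7, 229.4 and 189.9, and wild-type high-fat signals were 19.3, 54.7, 18.5 and 20.3. There the groups did not overlap, transgenic array 2 was not the lowest, and the difference was 2.61 ± 0.47 (adjusted p = 0.0531 in the fit over all probe sets).

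Mcm5 lies beside Mcm2 in the ring, at the gate through which DNA is thought to enter. Its signals were 10.6, 48.7 and 17.5 on the normal diet, 38.2, 101.4, 55.6 and 46.3 in wild-type high-fat livers, and 178.9, 136.6, 289.8 and 212.7 in transgenic livers. All transgenic arrays were above all wild-type arrays, and the difference on the high-fat diet was 1.81 ± 0.46 (log2, limma adjusted p = 0.116).

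Mcm3, the neighbour of Mcm5 in the ring, was measured by 5 probe sets. By the brightest, signals were 26.7, 61.0 and 24.7 on the normal diet, 65.6, 102.8, 82.3 and 38.7 in wild-type high-fat livers, and 155.1, 164.0, 186.5 and 163.7 in transgenic livers. The transgenic signals were close to one another and above every wild-type signal, with a difference of 1.29 ± 0.35 on the high-fat diet (log2, limma adjusted p = 0.131). Of the other 4 sets, 3 had no overlap on the high-fat diet, with differences of 1.05 to 2.54. The dim set 1420029_at differed by 0.60 ± 0.66, with transgenic signals of 10.0 to 38.6 overlapping wild-type signals of 4.8 to 31.3.

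**Figure D1:**
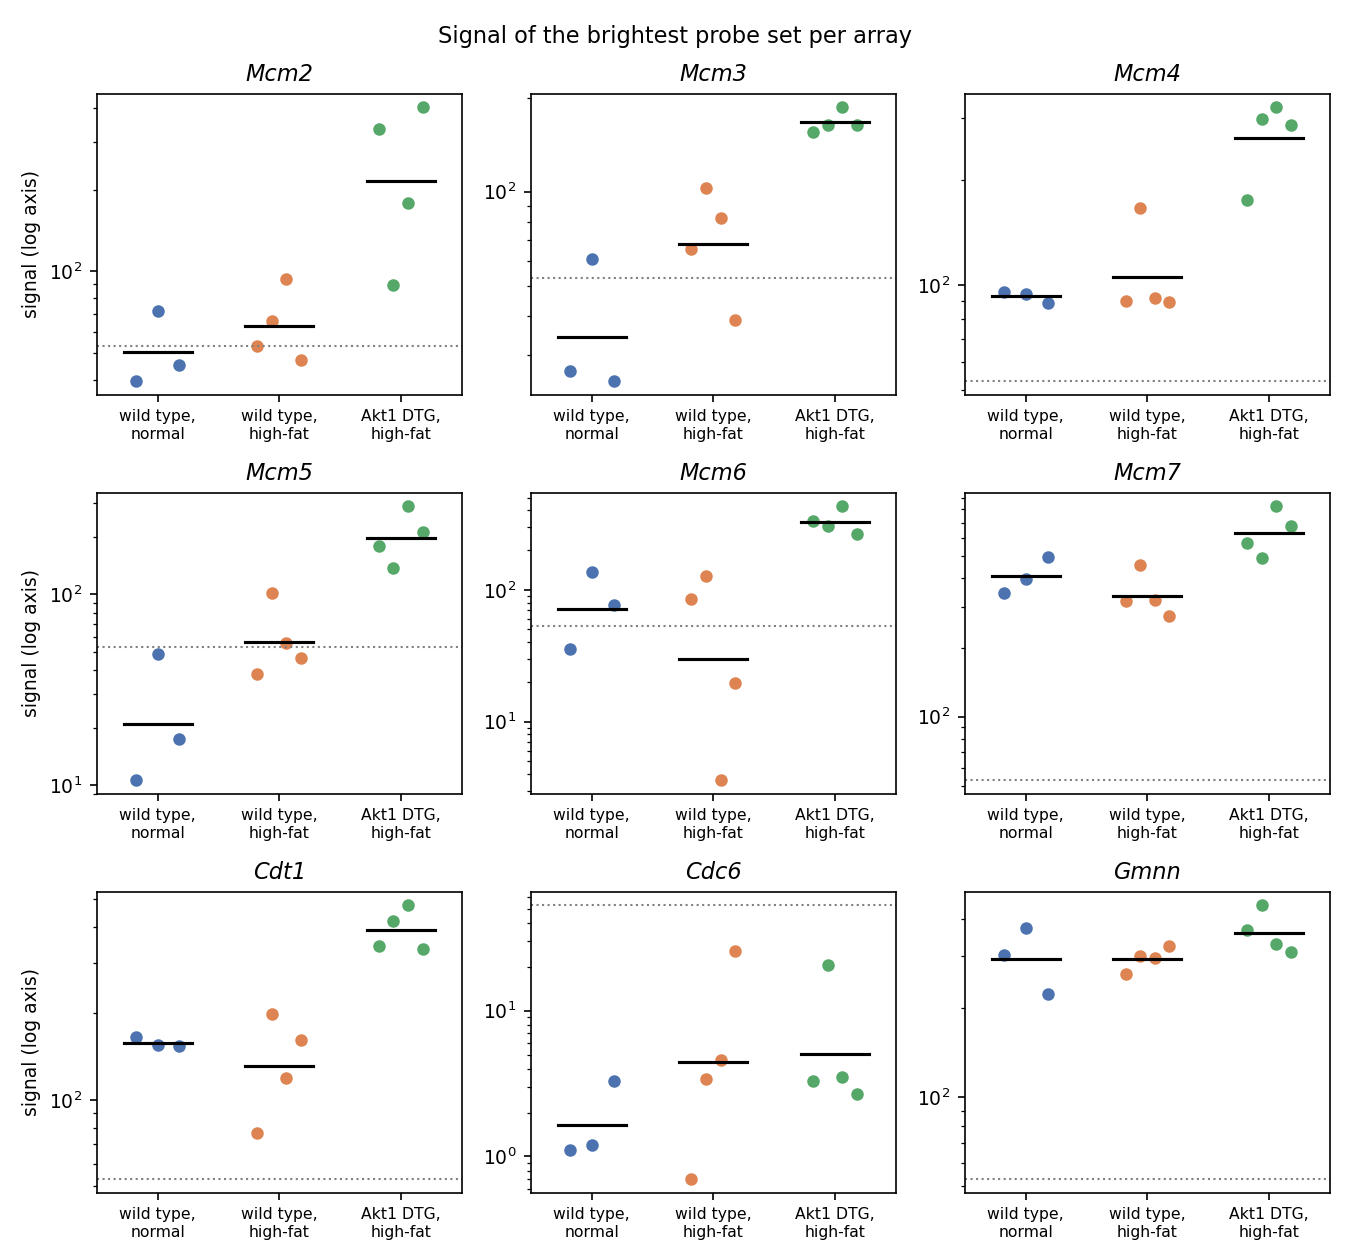
Signal of the brightest probe set of each member on each array (log axis), with points for single arrays in the order of their replicate numbers, bars for the group mean of log2 signals, and a dotted line at the signal limit of 53.0. The transgenic points lie above all wild-type points for Mcm3, Mcm4, Mcm5, Mcm6 and Cdt1, overlap them for Mcm2, Mcm7 and Gmnn, and Cdc6 lies below the limit on all 11 arrays.

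Among the loading factors, Cdt1 had the smallest p of the members. CDT1 brings the helicase to the origin and is degraded once S phase begins. Its signals were 165.5, 155.3 and 153.4 on the normal diet, 76.9, 199.5, 119.4 and 161.8 in wild-type high-fat livers, and 342.9, 418.1, 475.5 and 334.4 in transgenic livers. No transgenic array overlapped any wild-type array, and the difference on the high-fat diet was 1.57 ± 0.25 on the log2 scale (limma adjusted p = 0.0370). A second probe set, 1424144_at, differed by 1.29 ± 0.26 without overlap, and the third, 1455791_at, had signals of 0.9 to 24.2 on all arrays. Without transgenic arrays 3 and 4 the Cdt1 difference was 1.53 (adjusted p = 0.256).

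Cdc6, the ATPase that acts with CDT1 in loading, was near the floor of the measurement. Its single probe set read 1.1, 1.2 and 3.3 on the normal diet, 0.7, 3.4, 4.6 and 25.5 in wild-type high-fat livers, and 3.3, 20.6, 3.5 and 2.7 in transgenic livers. The groups overlapped and a single array was high in each high-fat group, so these signals gave no usable difference (0.17 ± 1.00 on the log2 scale in the fit without the signal limit).

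Gmnn, the inhibitor, was above the signal limit on every array. Its signals were 301.7, 371.6 and 222.6 on the normal diet, 261.3, 299.0, 294.6 and 322.8 in wild-type high-fat livers, and 367.1, 444.5, 328.2 and 310.1 in transgenic livers. All groups overlapped, and the difference on the high-fat diet, 0.29 ± 0.17 on the log2 scale, did not pass (limma adjusted p = 0.480).

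These calls were sensitive to single arrays. With wild-type high-fat array 1, 3 or 4 or transgenic array 2, 3 or 4 left out, 0 licensing genes passed between the groups on the high-fat diet, and Cdt1 then had adjusted p from 0.0518 to 0.106 with a log2 difference of 1.31 to 1.67. Without wild-type high-fat array 2, the highest of its group for 5 of 6 subunits, 4 passed. The count of calls over all genes also moved with the single array left out, so the 4 is not read as a result about the members. Without transgenic arrays 3 and 4 together 0 passed. Mcm2, Mcm3 and Mcm5 then differed by 1.46, 1.23 and 1.48 on the log2 scale, Mcm6 and Mcm7 by 3.43 and 0.65, and Gmnn by 0.46 (limma adjusted p from 0.376 to 0.476). Without transgenic arrays 1 and 2 together 4 passed. Over all genes the count of calls moved from 29 to 4 without transgenic arrays 3 and 4, and to 158 without arrays 1 and 2. The difference of each of the 8 tested members on the high-fat diet stayed above 0 in every fit that left out arrays.

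Over all 21 probe sets of the members transgenic exceeded wild-type livers on the high-fat diet in 21, by 0.17 to 3.47 on the log2 scale. Of the 12393 genes without the signal limit, 54.9% were above 0 in this comparison. For 16 of 21 every transgenic array was above every wild-type high-fat array, against 4.00% of the 20380 probe sets with a single symbol. In the helicase this held for 14 of 16, the exceptions being the brightest Mcm2 set and the dim Mcm3 set. In that larger fit 1 of 21 passed (Cdt1, 1424143_a_at, limma adjusted p = 0.0467), against 0.0638% of all probe sets called higher. Probe sets of a gene share its transcripts and are not separate evidence, and names ending in _x_at or _s_at mark sets whose probes can match more than 1 transcript.

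**Figure D2:**
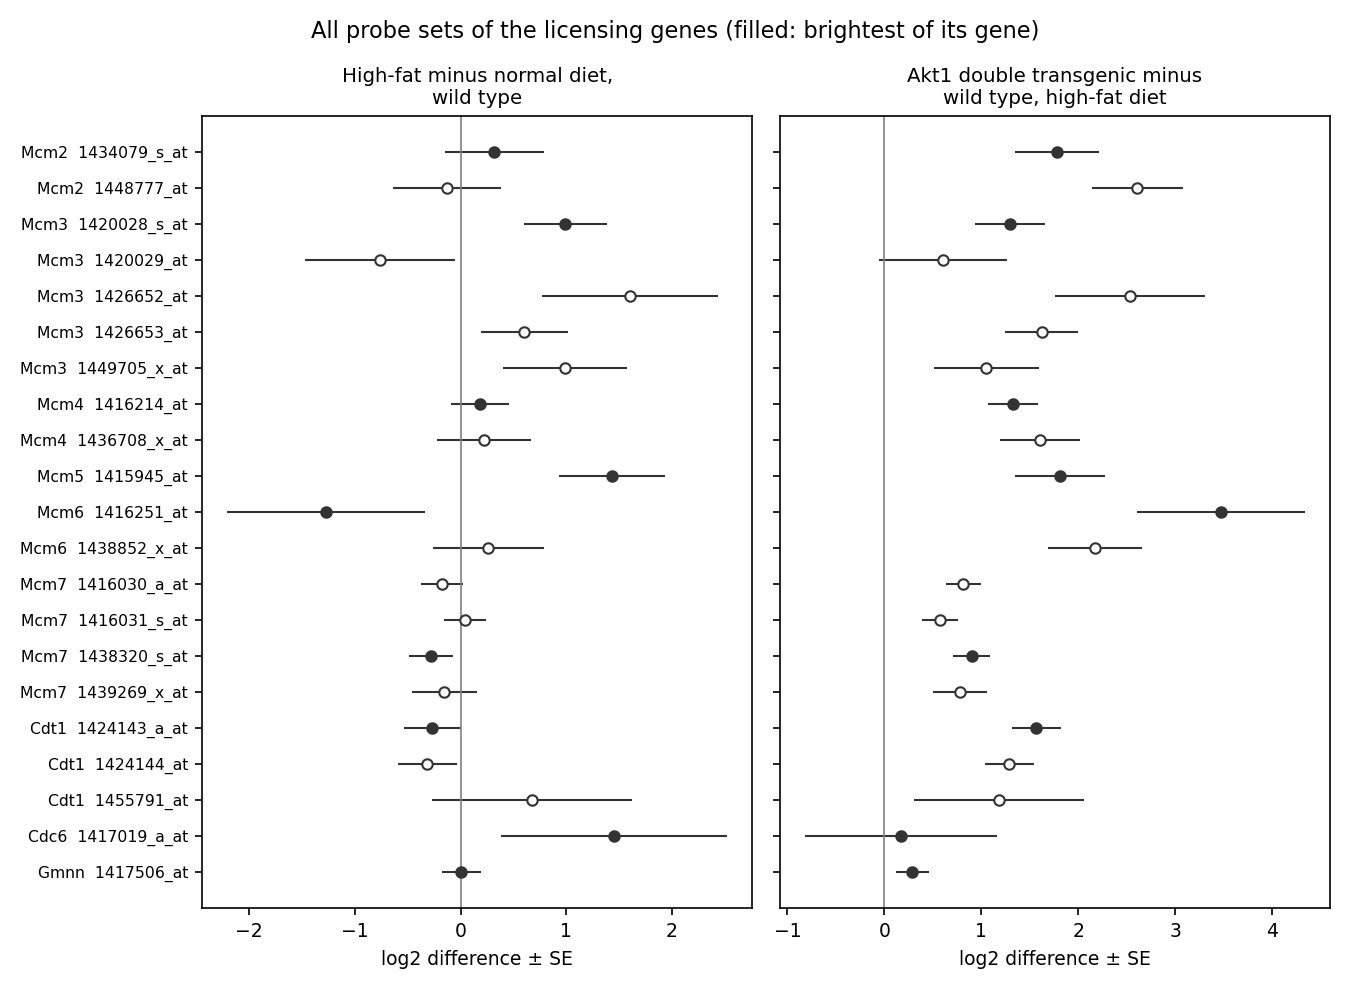
Log2 difference with its standard error for each of the 21 probe sets, for diet in wild-type mice (left) and for the transgene on the high-fat diet (right), with the brightest set of each gene filled. On the left the points lie on both sides of 0, from -1.27 to 1.60, and on the right all lie above 0.

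The diet alone gave no call among the members. Between wild-type livers on the high-fat and the normal diet 0 of 8 tested members passed (limma), as did 0.00% of tested genes in either direction, with 556 genes at an unadjusted p under 0.05. Mcm5 differed by 1.43 ± 0.50 and Mcm3 by 0.99 ± 0.38 on the log2 scale (limma adjusted p = 0.658 and 0.670), and these 2 were the members with an unadjusted p under 0.05. Their high-fat signals overlapped the normal-diet range through normal-diet array 2. The remaining tested members ranged from -1.27 ± 0.96 for Mcm6 to 0.32 ± 0.47 for Mcm2. The subunits took both signs, 4 above 0 and 2 below, and the median was 0.25. The diet groups overlapped for 9 of 9 members. Of tested genes 4.58% had all high-fat arrays above all normal-diet arrays, so overlap does not set the members apart. The share of genes with all high-fat arrays below was not counted. Over probe sets, 13 of 21 were above 0, beside 51.5% of all genes without the signal limit.

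Transgenic high-fat livers were also set against wild-type livers on the normal diet, a contrast in which diet and transgene differ together and which shares its arrays with both comparisons above. Here 5 of 8 tested members passed and all were higher, against 1.40% of tested genes called higher and 0.681% lower. Mcm5 and Mcm3 had entered the test only through their transgenic signals, since their wild-type means lay under the signal limit. Mcm5 was 9.46-fold higher (log2 3.24 ± 0.50, limma adjusted p = 0.0106) and Mcm3 was 4.87-fold higher (2.28 ± 0.38, 0.0148). Mcm4 (1.51 ± 0.26, adjusted p = 0.0162), Cdt1 (1.30 ± 0.27, 0.0362) and Mcm2 (2.10 ± 0.47, 0.0445) also passed. Mcm6, at 2.20 ± 0.96 (0.256), Mcm7, at 0.62 ± 0.21 (0.150), and Gmnn, at 0.30 ± 0.18 (0.421), did not. For 6 of 9 members every transgenic array was above every normal-diet array, against 8.46% of tested genes, and Mcm3, Mcm5 and Mcm6 are again among the 6. With the signal limit taken on wild-type arrays alone, which leaves these 3 out of the test, 3 members passed. Without transgenic arrays 3 and 4, 0 members passed, and Mcm5 and Mcm3 differed by 2.91 and 2.22 (adjusted p = 0.107 and 0.110). With any 1 array of these groups left out Mcm5 still passed, while the number of members that passed ranged from 1, without normal-diet array 1, to 4. It was 2 without normal-diet array 2, normal-diet array 3 or transgenic array 4, and 3 without transgenic array 3.

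The subunits were also followed array by array. The mean log2 signal of the 6 subunits, relative to the normal-diet mean, was 1.64 to 2.25 on the transgenic arrays, -0.21 to 1.02 on the wild-type high-fat arrays and -0.48 to 0.58 on the normal-diet arrays. Transgenic arrays 1, 3 and 4 were above all 7 wild-type arrays for 6 of 6 subunits, and transgenic array 2 for 4 of 6, Mcm2 and Mcm7 being the exceptions. Within groups, transgenic array 3 was the highest of its group for 5 of 6 subunits, wild-type high-fat array 2 for 5 of 6 and normal-diet array 2 for 4 of 6. Transgenic array 3 is also the array with the low spike signal. Of the helicase values, 8 of 18 on normal-diet arrays, 6 of 24 on wild-type high-fat arrays and 0 of 24 on transgenic arrays were under the signal limit, where single values are least precise.

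**Figure D3:**
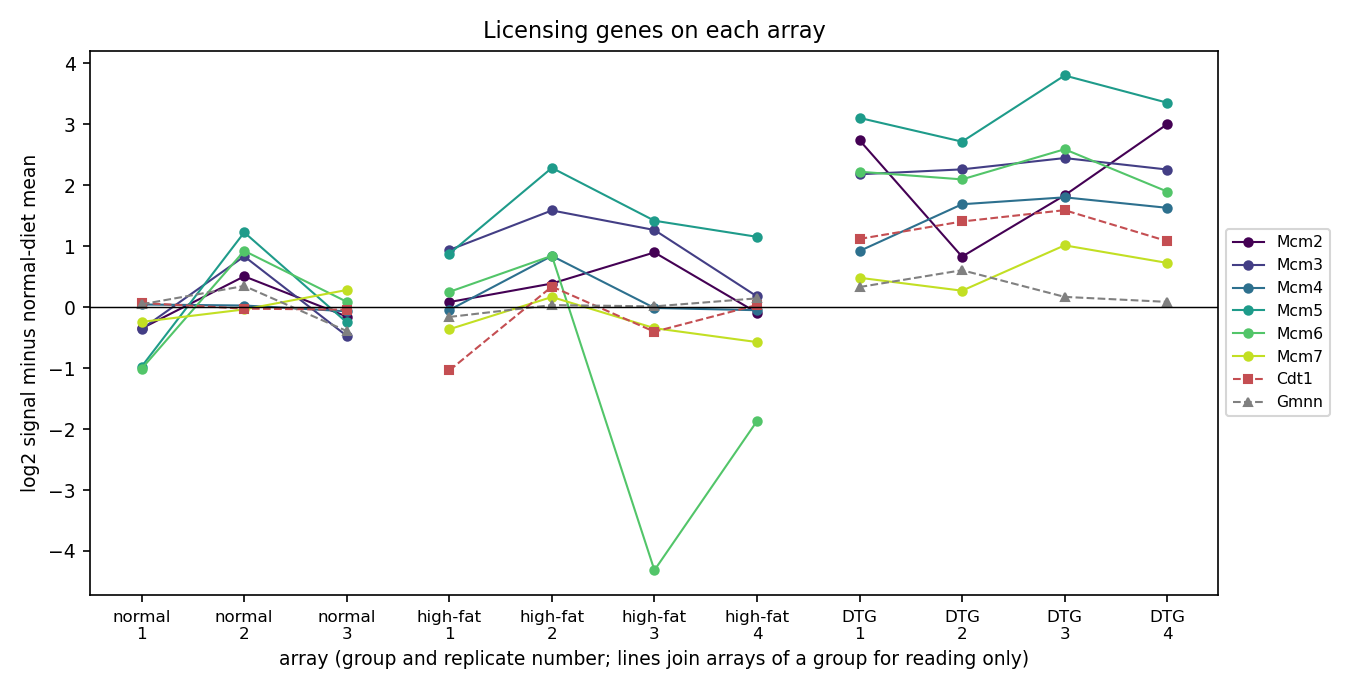
Log2 signal of 8 members on each array after subtracting the normal-diet mean of each gene, with arrays grouped along the horizontal axis and lines joining arrays of a group for reading only. The subunits lie higher on the transgenic arrays, Mcm6 is low on wild-type high-fat arrays 3 and 4, and Gmnn overlaps between the groups.

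Whether the subunits moved by the same amount was asked by comparing the log2 ratio of each pair within an array, between transgenic and wild-type high-fat livers. Over 15 pairs, 3 reached an exact permutation p of 0.0286 (two-sided, 4 against 4 arrays), the smallest this design can give. These were Mcm6 over Mcm7, with a difference of 2.57, Mcm3 over Mcm6, with -2.18, and Mcm5 over Mcm7, with 0.91. After adjustment over the 15 pairs 0 passed (exact permutation, adjusted p = 0.143 for these 3). Mcm6 and Mcm7, with the largest and the smallest difference, each stand in 2 of these 3 pairs, and the wild-type log2 ratios of Mcm6 to Mcm7 had an SD of 2.18. A p that misses the threshold does not show that the subunits changed equally.

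Within groups the pairs of subunits were compared after the group means had been subtracted. Over 11 arrays, the 15 helicase pairs had a median Pearson r of 0.41, from -0.24 to 0.78, with 13 above 0. The other 21 pairs of members had a median of 0.05, and pairs of all tested genes had a median of 0.01, with single pairs at -0.49 and 0.51 at the 10th and 90th percentiles. The highest pair was Mcm3 and Mcm5 (r = 0.78, exact permutation within groups, two-sided p = 0.0367, and rho = 0.73, exact permutation p = 0.0599). It did not pass adjustment over the 36 member pairs (adjusted p = 0.536 for r and 0.458 for rho), and r was 0.77 without the 2 arrays farthest from the median. Mcm2 had the lowest r with the mean of the 6 subunits (0.36), with r of -0.24 to Mcm4 and -0.14 to Mcm6. Without the 2 farthest arrays of each pair the median over helicase pairs was 0.30 and 11 of 15 were above 0. All pairs share the same arrays, their scaling and their RNA.

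**Figure D4:**
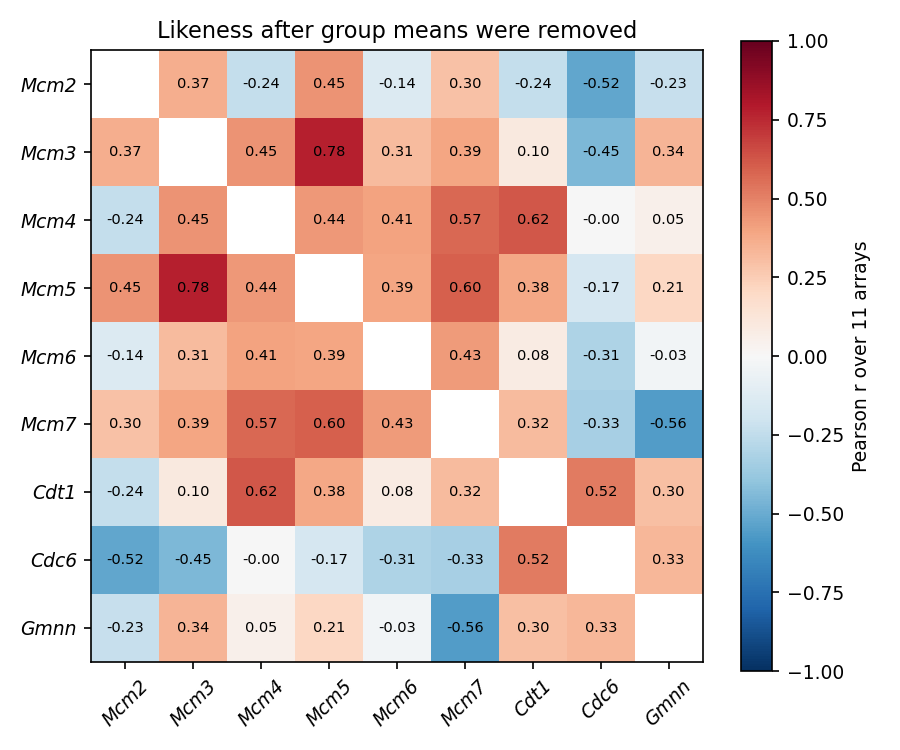
Pearson r between members over 11 arrays after group means were removed, by colour and value. The block of helicase subunits is mostly above 0, with Mcm3 and Mcm5 highest at 0.78, and Mcm2 is below 0 with Mcm4 and Mcm6.

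The genes most like the helicase across arrays were ranked against the mean of its group-centred log2 signals over 11 arrays. The 5 highest among 7924 genes were Ube2l6 (r = 0.93), an enzyme of ISG15 conjugation, the RING finger gene Rnf32 (0.93), the spliceosome gene Lsm3 (0.92), the exportin Xpo4 (0.92) and Bnip1 (0.90), a SNARE protein. Their log2 differences between transgenic and wild-type high-fat livers were 0.26, -0.03, 0.04, 0.61 and 0.06, and 0 of 5 passed (limma, the smallest adjusted p being 0.264). The mean profile leans on Mcm6, whose group-centred signals had an SD of 1.52 against 0.30 to 0.73 for the other subunits.

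The rest of the replication machinery was described from fixed lists, with counts from the same fit and values of the 2 genes of smallest p from the fit without the signal limit. In that fit 54.9% of all genes were above 0 on the high-fat diet, a share to read beside the counts above 0. In the origin recognition complex, which marks origins and recruits the loaders, 0 of the 6 genes tested passed on the high-fat diet, and 1 of 7 measured was under the signal limit. The median log2 difference of the 7 was 0.05, with Orc3 at 0.21 ± 0.14 (limma adjusted p = 0.612) and Orc5 at -0.20 ± 0.14 (0.617). Each of these genes overlapped between the groups.

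Of 14 genes of helicase activation and origin firing 6 were above the signal limit and tested, and 0 passed. Over all 14 the median was 0.30 with 10 above 0. In 4 of them, Timeless, Topbp1, Gins4 and Gins1, every transgenic array was above every wild-type high-fat array, as in 4.32% of tested genes and 4.00% of all probe sets (Gins4 and Gins1 are named after their values were seen). Timeless, a fork protection factor with a mean under the signal limit, read 25.7, 89.2, 7.8 and 16.3 in wild-type high-fat livers and 139.8, 129.1, 136.1 and 105.7 in transgenic livers, a difference of 2.45 ± 0.59 (log2, limma adjusted p = 0.126). Topbp1, which helps to activate the loaded helicase, differed by 0.76 ± 0.26 (0.292).

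Of 25 replication fork genes 23 were tested and 0 passed, with 20 of 25 above 0 and a median of 0.38. Prim1, the catalytic subunit of the primase, read 150.5, 162.0, 73.7 and 65.7 in wild-type high-fat livers and 229.6, 210.4, 317.8 and 240.4 in transgenic livers. The groups did not overlap, and the difference was 1.24 ± 0.30 (log2, limma adjusted p = 0.124). Pcna, the sliding clamp, differed by 0.38 ± 0.10 (0.143), also without overlap. Against the normal diet 3 of the 23 tested fork genes were called higher, against 1.40% of all tested genes. They were Rpa2, Prim1 and Rfc2 (limma adjusted p = 0.0120, 0.0305 and 0.0477), named here after their values were seen.

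Of 14 genes of E2F factors and pocket proteins 8 were tested and 0 passed, with a median of 0.26 over the 14. Rbl1, which encodes the pocket protein p107, read 29.4, 61.7, 40.8 and 28.9 in wild-type high-fat livers and 117.1, 98, 125.4 and 83.2 in transgenic livers. It lay below the signal limit on average, and it differed by 1.45 ± 0.35 without overlap (log2, limma adjusted p = 0.128). Tfdp1, the dimer partner of E2F factors, differed by 0.31 ± 0.13 (0.376). E2f1 itself was dim and differed by 0.36 ± 0.33.

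Of 10 genes of CDT1 turnover and rereplication control 9 were tested and 0 passed, with a median of 0.02 over the 10. Kmt5a, a histone methyltransferase destroyed by the same ligase as CDT1, differed by -0.29 ± 0.17 (log2, limma adjusted p = 0.556), and Cdkn1a, the kinase inhibitor p21, by 0.79 ± 0.45 (0.562). Of 19 mitotic genes 2 were above the signal limit (Cdc20 and Cenpa) and tested, and 0 passed, with a median of 0.66 over the 19. The summed signal of all 19 was 519 to 552.3 on the normal-diet arrays and 373.5 to 611.6 on the wild-type high-fat arrays. On the transgenic arrays it was 717.4 to 937.5, above all wild-type arrays. The mean log2 signal of the 19 overlapped, at 3.96 to 4.22, 3.39 to 4.26 and 3.98 to 5.06 in these groups in turn. How these levels relate to the helicase signals was not tested. Ube2c, an ubiquitin-conjugating enzyme of mitotic exit, was dim in wild-type high-fat livers (5.4 to 40) and read 59.8 to 103.5 in transgenic livers, a difference of 2.19 ± 0.67 (limma adjusted p = 0.241). Mki67, a marker of cycling cells, had signals of 1.3 to 33.6 on all arrays. Ccna2, which encodes cyclin A2, was dim too, at 35.7, 45.7 and 46.4 on the normal diet, 6, 34.9, 33.5 and 3.2 in wild-type high-fat livers and 45.3, 45.6, 60.9 and 56.8 in transgenic livers. It differed by 2.08 ± 0.70 on the high-fat diet (limma adjusted p = 0.292) and by 0.29 ± 0.76 against the normal diet, and wild-type high-fat arrays 1 and 4 were the low ones.

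**Figure D5:**
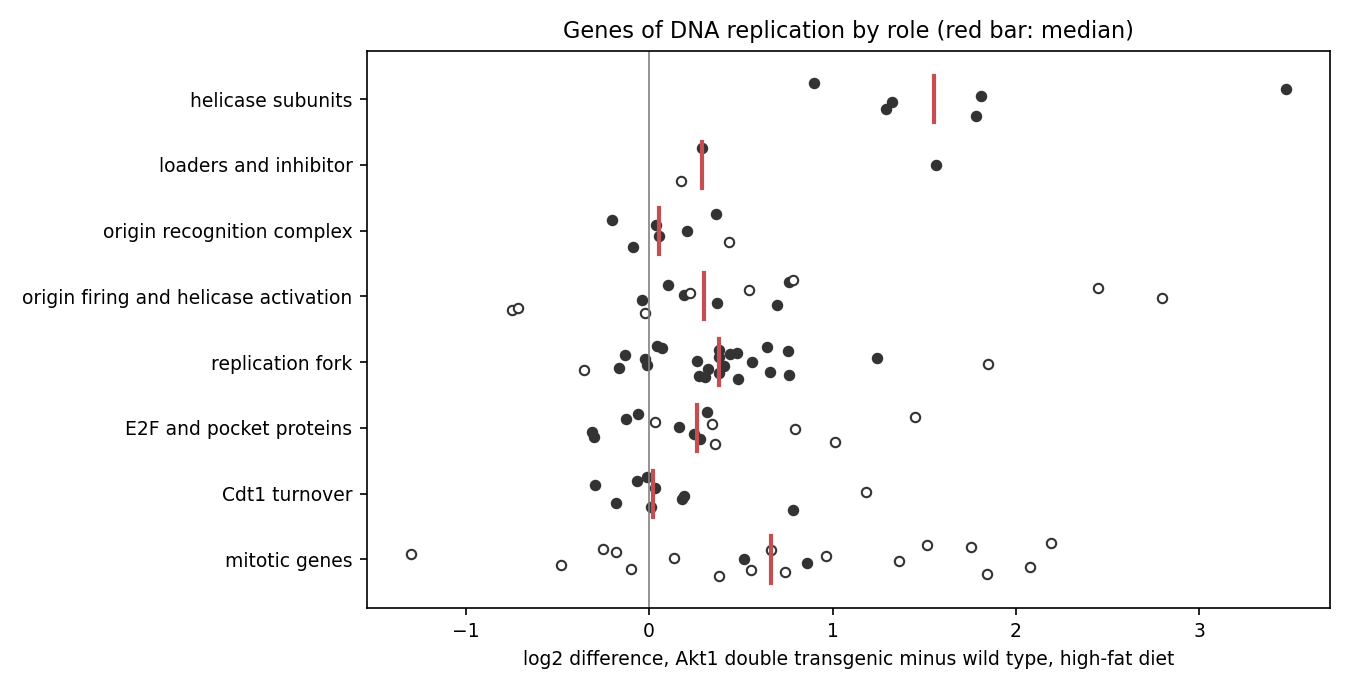
Log2 difference between transgenic and wild-type livers on the high-fat diet for each measured gene of the replication lists (filled points passed the signal limit, open points did not), with a red bar at the median of each list. The helicase subunits lie between 0.90 and 3.47 with a median of 1.55, and the medians of the other lists lie between 0.02 and 0.66.

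Markers of other liver cell types were read beside these results. Without the signal limit 54.9% of all genes were above 0 for the transgene on the high-fat diet. The share was 51.5% for diet alone and 55.4% for transgenic against normal-diet livers. Of 11 Kupffer cell and macrophage markers 10 were above the signal limit, and 0 passed on the high-fat diet. Their summed signal was 3218.1 to 6110.4 on the normal-diet arrays, 4431.9 to 10054.9 on the wild-type high-fat arrays and 5509.3 to 15589.7 on the transgenic arrays, so it overlapped between groups, and 9 of 11 had a higher mean in transgenic than in wild-type high-fat livers. Among transgenic arrays the macrophage sum was highest on array 2, which had the lowest mean log2 signal of the subunits (1.64 relative to the normal-diet mean). Among wild-type high-fat arrays it was also highest on array 2, which had the highest subunit mean of its group (1.02). Among normal-diet arrays it was highest on array 1, which had the lowest subunit mean (-0.48). How the macrophage sum relates to the subunit signals was not tested. For diet alone, where 0 subunits were called, macrophage markers had a median log2 difference of 0.60 with 11 of 11 above 0. The subunits had a median of 0.25 there. In transgenic against normal-diet livers, where more helicase subunits were called, the macrophage markers had a median of 1.16 with 11 of 11 above 0. There 1 of the 10 tested passed, against 1.40% of tested genes called higher. It was Cd5l, a secreted macrophage protein named after its values were seen (2.02 ± 0.46, limma adjusted p = 0.0456). For 5 of 11 every transgenic array was above every normal-diet array, against 8.46% of tested genes. Neutrophil and myeloid precursor markers (0 of 10 above the limit) had summed signals of 219.4 to 326.9 in wild-type high-fat and 324.5 to 591.6 in transgenic livers, and T, B and NK cell markers (0 of 11 above the limit) had 164.1 to 290.2 and 277.5 to 420.5. Of the 10 neutrophil markers 9 were above 0 with a median of 0.42. S100a8 (1.41 ± 0.44) and S100a9 (1.20 ± 0.54), calprotectin subunits named after their values were seen, did not overlap. All transgenic arrays were above all wild-type high-fat arrays in 4.32% of tested genes and 4.00% of all probe sets. The lymphocyte markers had 9 of 11 above 0 and a median of 1.14, from -0.67 to 2.07, beside 1.55 for the helicase subunits. Their mean log2 signal was 4.39 to 4.65 on the transgenic arrays, above all wild-type arrays. It was 3.22 to 4.06 on the wild-type high-fat arrays and 3.52 to 4.04 on the normal-diet arrays. The mean log2 signal of the neutrophil markers overlapped, at 4.12 to 5.80, 3.87 to 4.67 and 3.51 to 4.53 in these groups in turn. Erythroid markers, 3 of 8 above the limit, had 752.9 to 958.1 and 622.4 to 923.5. The medians of the remaining lists took both signs on the high-fat diet. Stellate cell markers had 2 of 10 above 0 and a median log2 difference of -0.49. Liver endothelial markers had 8 of 10 above 0 (median 0.15), bile duct markers 3 of 6 (0.11) and skeletal muscle markers 4 of 8 (-0.10). The part of such cells in the helicase signals was not tested.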

How the data were processed

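Total liver RNA was labelled with biotin and hybridised to 1 oligonucleotide array per mouse, per the labels' protocols. The deposited values are linear intensity values (signal), made by the authors with MAS5 (no version named), as the submitters' processing notes state. Detection calls were not used here, and the number of arrays limits the precision. Values under 1 (1386 in the table) were set to 1 before log2. Of 22690 probe sets, 20380 had 1 gene symbol, 691 several and 1555 none, and 64 were controls. Symbols came from the platform annotation.

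Differences were fitted with limma 3.58.1 in R 4.3.3 (lmFit, eBayes with an intensity trend) on all 11 arrays, with group means as the only terms. Tests were two-sided, adjusted by Benjamini-Hochberg over all genes tested, with a threshold of 0.05. Errors are moderated standard errors. Folds are ratios of geometric means of the deposited signal intensity. The limma p-values weigh a difference between groups against the spread between these mice, moderated with the intensity trend over all genes in the fit. Fits were tested on simulated data. Pairs were compared by exact permutation (scipy 1.17.1). Alternatives were quantile normalization, log2(signal + 32), a limit of 60% or none, all probe sets, a robust fit, a fit that ignores the intensity trend, array weights, fits of the compared groups alone, a replicate block, and fits without single arrays or pairs of transgenic arrays. A limit taken on wild-type arrays alone was added after seeing the data.

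All 9 members were named. From each other list any gene past the threshold between the groups on the high-fat diet, otherwise the 2 of smallest p, and the 5 genes most like the helicase were named. Gins1, Gins4, Rpa2, Rfc2, E2f1, Mki67, Cdc20, Cenpa, Cd5l, S100a8 and S100a9 were named after their values were seen. The members, lists and settings were chosen with earlier results of these data known.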

Additional observations from a re-analysis of the deposited data

Results flagged for a closer look

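In 18 groups of 4 arrays, taken over the members' brightest probe sets, 2 had an array far from the other 3, and chance alone gives about 1 in 20 groups. Mcm4 on wild-type high-fat array 2 had a signal of 165.9, and its gap to the next array was 0.96 of the range of the group on the log2 scale (above Dixon's critical value). Cdc6 on transgenic array 2 had a signal of 20.6, with a gap of 0.87 of the range. Cdc6 signals are near the floor on all 11 arrays.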

How the results depend on the processing

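Counts of calls depended on the settings, and the cause was not tested beyond what each setting removes. Between the groups on the high-fat diet 29 genes and 2 members passed. The counts were 12 and 1 without the signal limit, 0 and 0 without the intensity trend, 8 and 0 with only the groups compared, 4 and 0 when transgenic arrays 3 and 4 were left out, 158 and 4 when instead arrays 1 and 2 were, and 19 and 1 with the limit taken on wild-type arrays. With array weights 58 genes passed. With a 60% limit, which left Mcm2, Mcm3, Mcm4, Mcm5 and Mcm6 out of the test, 1 member passed. With the replicate block 1 member passed. Leaving out single arrays gave 0 to 64 genes and 0 to 4 members. Against the normal diet 165 genes and 5 members passed. The counts were 81 and 3 without the trend, and 23 and 0 without transgenic arrays 3 and 4. Genes numbered 104 with only the groups compared and 348 without transgenic arrays 1 and 2. Members numbered 1 with the 60% limit, which again left the same 5 subunits untested, 3 with the replicate block and 3 with the wild-type limit. Leaving out single arrays gave 36 to 162 genes and 1 to 4 members. For diet 0 genes passed, with 1 under array weights, 2 with the replicate block and 0 to 2 without single arrays, and 0 members passed in each of these.

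Member differences changed sign for diet alone. Gmnn was -0.061 with array weights and -0.19 to 0.18 without single arrays, and Mcm4 was -0.038 to 0.26 without single arrays. The replicate numbers were not taken as pairs, since on the high-fat diet same-numbered arrays had correlations of deviations of 0.08, 0.29, 0.14 and 0.12, of which the first is under 0.1, though each transgenic array correlated best with its own number. With the block, Mcm4 had a limma adjusted p of 0.0552 and Cdt1 of 0.0483 on the high-fat diet. The pairwise ratios were not rerun without single arrays, because 3 against 4 arrays cannot reach an exact p of 0.05. The same 3 pairs were at the smallest p with quantile normalization and with log2(signal + 32). With the second probe set (Mcm5 has only 1 and kept it) 3 pairs were there too, of which 1, Mcm6 and Mcm7, was shared. The median r of helicase pairs was 0.41 with quantile normalization and 0.49 with log2(signal + 32). In wild-type livers the geometric mean signals of Mcm3, Mcm5 and Mcm6 were under the limit of 53.0, and Cdc6 was near the floor, which limits their precision.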
